A study of Mus musculus with 4 samples.

Results

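The genes described here encode 8 immune receptors grouped as inhibitory: Lag3, Pdcd1, Ctla4, Havcr2, Cd160, Btla, Lilrb4a and Lair1. They form one named list and were looked up by symbol in the mouse gene annotation (GENCODE, GRCm38). Of the 8 genes, 7 were matched by identifier among 35275 identifiers, of which 21484 had a count in any library. Lilrb4a was not matched by its own identifier and is described through an overlapping one. The RNA came from natural killer (NK) cells of mouse spleen, enriched with an isolation kit and sorted as CD3-negative, NK1.1-positive cells. There were 4 groups with 1 library each: Irf4-/- mice injected into a vein with B16-F10 cells, a mouse melanoma line, and sampled on day 20; Irf4-/- control mice without tumour cells; WT C57BL/6 mice injected in the same way; and WT control mice. Irf4-/- denotes loss of IRF4, a transcription factor of activated lymphocytes. The labels do not give the age of the mice, how many were behind a library or which part of Irf4 was deleted. No sampling day is given for the control mice.

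Inhibitory receptors restrain lymphocytes after they meet a ligand on another cell. Many of them, including PD-1 (Pdcd1), BTLA and LAIR1, carry tyrosine motifs in their cytoplasmic tails that recruit phosphatases such as SHP-1, the product of Ptpn6. LAG3, a relative of CD4, binds MHC class II and other ligands and signals through a different tail. In NK cells such receptors accompany activation and maturation, and several of them are targets of antibodies in cancer therapy.

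Total counts per library were between 15878159 and 21104881. Irf4 itself had 236 counts in Irf4-/- injected and 188 in Irf4-/- control, against 57 in WT injected and 93 in WT control. The counts of the targeted gene were thus higher in both libraries labelled Irf4-/-, and with the deleted part unknown they check nothing. Every genotype direction below rests on those labels. NK markers, including Ncr1, Klrb1c and Prf1, were present in all libraries, with a summed level between 15750 and 17370 CPM (counts scaled to library size by TMM) over 12 genes. WT injected stood farthest from the others, with a median absolute log2 ratio of 0.163 to 0.190 over 9674 genes, against 0.103 to 0.128 among the other libraries. With 1 library per group, a difference between 2 libraries compares those libraries and not the conditions. Intervals given with counts, CPM and ratios are exact 95% intervals for counting error alone, and reads of PCR-amplified libraries are not independent molecules.

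Lilrb4a, which encodes the inhibitory receptor gp49B, lies on chromosome 10 from 51490956 to 51496611 beside its near-identical neighbour Lilr4b, which ends 4253 bases before it. The identifier with counts at this place is ENSMUSG00000062593, which the annotation names Gm49339 (51480612 to 51496613). The deposited values for it were computed with a length of 1441 bases, which is also the length of 1 annotated Gm49339 transcript. That transcript has 114 bases in the first exon of Lilr4b and 1327 bases in exons of Lilrb4a. Its longest wholly coding exon, of 303 bases, was 96.7% identical to the corresponding exon of Lilr4b. The first 120 bases of both exons (plus strand, GENCODE transcripts, Lilrb4a at chr10:51491861-51491980 and Lilr4b at chr10:51481567-51481686) are shown because they decide how far reads can be told apart, with the 5 differing bases in capitals.
Lilrb4a: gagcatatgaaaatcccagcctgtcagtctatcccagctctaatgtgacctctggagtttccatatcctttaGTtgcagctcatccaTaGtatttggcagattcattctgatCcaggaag
Lilr4b: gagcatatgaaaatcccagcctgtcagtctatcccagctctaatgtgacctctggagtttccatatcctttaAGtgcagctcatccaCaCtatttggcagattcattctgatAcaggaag
Over the whole transcript, 30.8% of its 1392 windows of 50 bases also occurred in a Lilr4b transcript. Values of Gm49339 are therefore given as those of the Lilrb4a locus, with reads of Lilr4b possibly included, and are not counted among the 7 matched genes.

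Per length of gene (deposited FPKM), Cd160 was the most abundant of the 7 matched genes in all 4 libraries. CD160 is a membrane-anchored immunoglobulin-family receptor that binds the TNF receptor family member HVEM and MHC class I. It is described here as a member of the list, and whether it inhibits NK cells was not tested. The FPKM of Cd160 was 66.9 in Irf4-/- injected, 55.6 in Irf4-/- control, 45.2 in WT injected and 53.0 in WT control. Cd160 made up between 72.6% and 80.4% of the summed FPKM of the 7 genes. Lag3 and Lair1 came next, and the Lilrb4a locus lay between them and Cd160, with an FPKM of 39.7 in Irf4-/- injected, 30.2 in Irf4-/- control, 16.5 in WT injected and 12.1 in WT control. Btla followed with between 0.908 and 1.25 FPKM. Havcr2, with 0.296 to 0.556 FPKM, and Pdcd1, with 0.344 to 0.50 FPKM, had overlapping counting intervals in every library. Ctla4 was lowest in all 4 libraries, with 0.0245 to 0.250 FPKM, although its interval overlapped that of Havcr2 or Pdcd1 in every library except WT control.

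The order of Lag3 and Lair1 by FPKM was not the same in every library. Lair1 encodes a receptor for collagens with inhibitory tyrosine motifs. In Irf4-/- injected the FPKM of Lag3 was 1.43 times that of Lair1 (1.27 to 1.61), and in Irf4-/- control 1.13 times (0.978 to 1.31, which includes 1). In WT injected it was 0.801 times that of Lair1 (0.686 to 0.934) and in WT control 0.808 times (0.682 to 0.955). Per length of gene, Lag3 thus stood above Lair1 in the injected Irf4-/- library and below it in both WT libraries. The lengths behind these values were 2001 bases for Lag3 and 3461 for Lair1, and the intervals do not cover them. In CPM, without division by length, Lair1 was above Lag3 in all 4 libraries, with 33.5 against 27.7 in Irf4-/- injected.

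**Figure D1:**
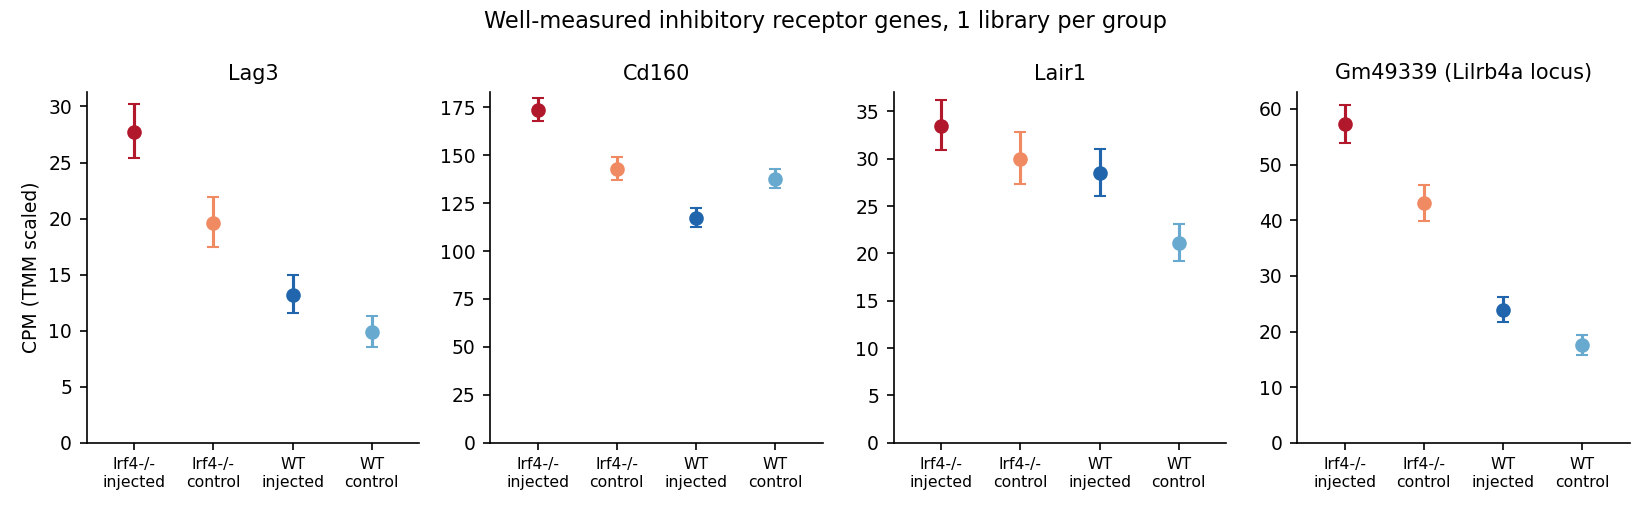
Level in CPM (TMM scaled, axis from 0) of Lag3, Cd160, Lair1 and the Lilrb4a locus identifier Gm49339 in the 4 libraries, with 95% counting intervals as bars. Lag3 and Gm49339 are higher in both Irf4-/- libraries than in either WT library, with no overlap of intervals.

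Lag3 (ENSMUSG00000030124, chromosome 6, 124904361 to 124911705) was the 1 of the 7 matched genes that was called as higher with the Irf4-/- label. It had 516 counts in Irf4-/- injected and 314 in Irf4-/- control, against 245 in WT injected and 207 in WT control. Scaled to library size, this was 27.7 CPM in Irf4-/- injected, 19.6 in Irf4-/- control, 13.2 in WT injected and 9.85 in WT control. Both Irf4-/- libraries lay above both WT libraries. In a model of all 4 libraries with a term for genotype and one for injection, without interaction, the genotype term of Lag3 rose by 1.04 (log2, SE 0.158, adjusted p 0.00769, edgeR's quasi-likelihood test with Benjamini-Hochberg adjustment over 11998 genes). Between the injected mice the log2 ratio, Irf4-/- over WT, was 1.07 (0.85 to 1.30). Between the control mice, a pair without the WT injected library, it was 0.99 (0.74 to 1.25). The call was lost when the injection term was left out, with a log2 change of 1.05 and an adjusted p of 0.268.

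The additive fit has 1 residual degree of freedom, so its spread is how far 4 libraries depart from additivity and not the spread between animals. Of the 7 matched genes, 5 passed the filter of at least 1 CPM in at least 2 libraries, and of these 1 rose and 0 fell with genotype. Over all genes tested 1.22% rose and 0.258% fell with genotype, 1.48% in either direction. The median log2 change of the 5 tested genes was 0.32, beside -0.001 over all genes tested.

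The Lilrb4a locus identifier Gm49339 rose by more than Lag3 did. It had 1066 counts in Irf4-/- injected and 690 in Irf4-/- control, against 443 in WT injected and 368 in WT control. Scaled, it had 57.3 CPM in Irf4-/- injected and 43.1 in Irf4-/- control, against 23.8 in WT injected and 17.5 in WT control. The Irf4-/- libraries did not overlap the WT libraries. Its genotype term rose by 1.29 (log2, SE 0.125, adjusted p 0.000474, edgeR's quasi-likelihood test), and without the injection term the adjusted p was 0.0995. Between injected mice the log2 ratio was 1.26 (1.10 to 1.43) and between control mice 1.29 (1.11 to 1.49).

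Lair1 and Cd160 did not pass the genotype test. Lair1 (chromosome 7, 4003402 to 4063204) had 33.5 CPM in Irf4-/- injected and 30.0 in Irf4-/- control, against 28.5 in WT injected and 21.1 in WT control. Its log2 change with genotype was 0.38 (SE 0.139, adjusted p 0.348, edgeR), and its log2 ratios were 0.23 (0.06 to 0.40) between injected mice and 0.51 (0.32 to 0.70) between control mice. Cd160 (chromosome 3, 96798763 to 96829351) had 3231 counts or 173.5 CPM in Irf4-/- injected and 2287 counts or 142.8 CPM in Irf4-/- control. Cd160 had 2180 counts or 117.4 CPM in WT injected and 2895 counts or 137.7 CPM in WT control. Between injected mice its log2 ratio was 0.56 (0.49 to 0.64), with WT injected the lowest of the 4 libraries, and between control mice it was 0.05 (-0.03 to 0.13). The log2 change of Cd160 with genotype was 0.32 (SE 0.122, adjusted p 0.375, edgeR).

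**Figure D2:**
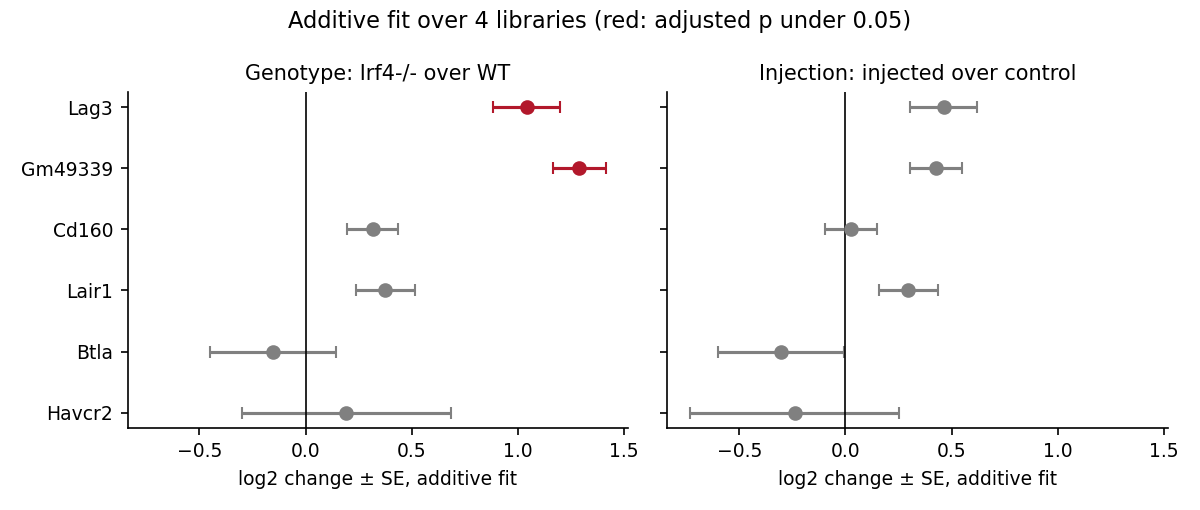
Log2 change with standard error for genotype (Irf4-/- over WT, left) and injection (injected over control, right) in the additive fit, for the 5 matched genes that were tested and the Lilrb4a locus identifier Gm49339. Lag3 at 1.04 and Gm49339 at 1.29 pass the genotype test, and no gene shown passes the injection test.

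As a rule of size, a gene was counted in a pair of libraries when its mean was at least 5 CPM, its ratio at least 2-fold and its counting interval excluded 1. Lag3, Cd160 and Lair1 reached 5 CPM in each pair. In the injected genotype pair Lag3 was counted as higher, 1 of these 3 genes, where 1.14% of all 9685 genes were higher and 0.661% lower. In the control genotype pair none of the 3 was counted, where 0.694% of 9659 genes were higher and 0.104% lower. There Lag3 had a ratio of 1.99 (1.67 to 2.38), just under the fold required. With library totals in place of TMM scaling it was counted. Intervals that exclude 1, with no minimum fold, were common: in the injected genotype pair 27.8% of all genes at 5 CPM lay above and 27.1% below, beside 3 of the 3 receptor genes above. In the control genotype pair 15.1% lay above and 22.4% below, beside 2 of the 3 receptor genes, Lag3 and Lair1, above.

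**Figure D3:**
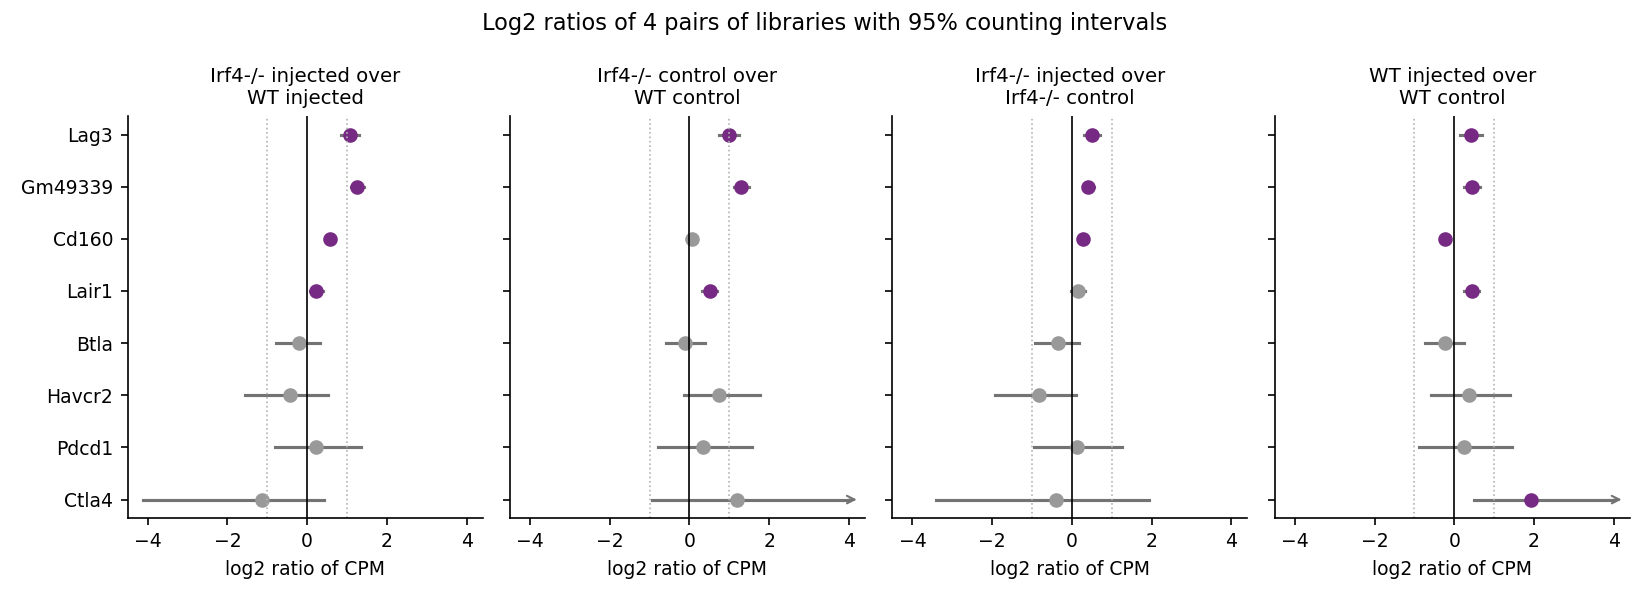
Log2 ratio of CPM with 95% counting interval in 4 pairs of libraries for the 7 matched genes and Gm49339, with 2-fold marked by dotted lines, purple where the interval excludes 0 and arrows where it runs past the axis. Lag3 lies at 1.07 and 0.99 in the genotype pairs, and the intervals of Havcr2 and Pdcd1 include 0 in all 4 pairs.

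The injection comparison asked how the receptors stood on day 20 after melanoma cells entered the blood, against control mice with no sampling day given. None of the 5 tested genes passed in edgeR's quasi-likelihood test, where 0.725% of all genes did (0.333% higher and 0.392% lower). None passed with DESeq2 or limma-voom either. Lag3 came closest, with an unadjusted p of 0.014 in edgeR's test, which ranked 761 among 11998 genes by p. Lag3 had a log2 change with injection of 0.46 (SE 0.157, adjusted p 0.218, edgeR). Its log2 ratio was 0.50 (0.29 to 0.71) in Irf4-/- mice and 0.42 (0.15 to 0.70) in WT mice. The response of Lag3 differed between genotypes by 0.08 on the log2 scale (Irf4-/- minus WT), with an approximate counting interval of -0.26 to 0.41. Within each genotype the injected library thus held more Lag3 than its control beyond counting error, by less than 2-fold.

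Gm49339 had a log2 ratio with injection of 0.41 (0.27 to 0.55) in Irf4-/- mice and 0.44 (0.24 to 0.65) in WT mice, and an adjusted p of 0.156 by edgeR in the additive fit. Lair1 was at 0.16 (-0.01 to 0.33) in Irf4-/- mice and 0.43 (0.25 to 0.62) in WT mice, with an adjusted p of 0.368. Cd160 was at 0.28 (0.20 to 0.36) in Irf4-/- mice and -0.23 (-0.31 to -0.15) in WT mice. Cd160 was therefore the 1 gene of the group whose counting intervals lay on opposite sides of 0 for the 2 genotypes, and it had an adjusted p of 0.949 in the additive fit. Differences of responses (Irf4-/- minus WT) have approximate counting intervals, from a normal approximation, and not exact ones. For Lair1 the difference was -0.28 (-0.53 to -0.03), an interval that excludes 0. For Ctla4 it was -3.98 (-7.66 to -0.30), but 1 to 9 counts per library are too few for this approximation, so nothing is read from it. How many of all genes have an interval of the difference that excludes 0 was not counted. By the 2-fold rule none of the 3 genes at 5 CPM was counted with injection. In Irf4-/- mice 0.134% of genes were higher and 0.217% lower by that rule, and in WT mice 1.06% were higher and 0.83% lower. With no minimum fold, 22.1% of genes at 5 CPM had intervals above 0 and 18.9% below in Irf4-/- mice, and 28.7% above and 32.6% below in WT mice. Opposite intervals as for Cd160, above 0 in Irf4-/- and below 0 in WT mice, were found in 4.03% of 9523 genes, and the reverse in 2.69%.

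**Figure D4:**
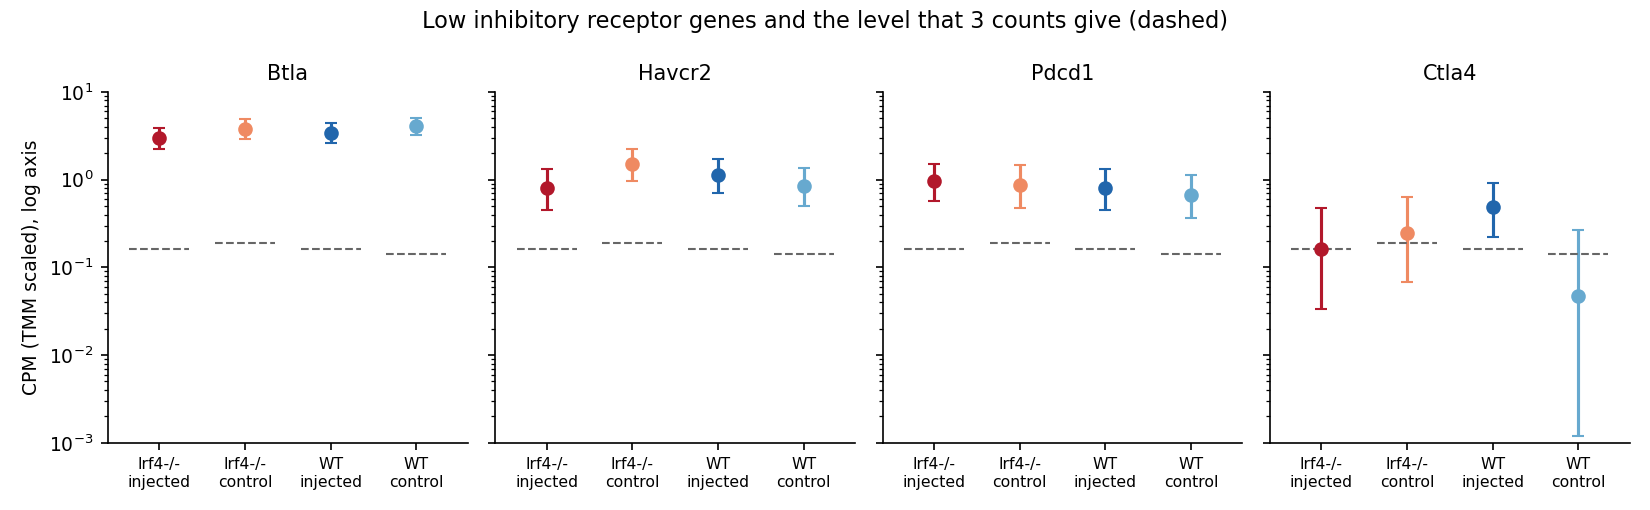
Level in CPM (TMM scaled, log axis) of Btla, Havcr2, Pdcd1 and Ctla4 in the 4 libraries, with 95% counting intervals as bars and the level that 3 counts give as a dashed line. Btla, Havcr2 and Pdcd1 lie above the dashed line in all 4 libraries, while Ctla4 lies on, near or below it in all but WT injected.

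The other matched genes were low. The level that 3 counts give was taken as the limit of detection. A count of 0 has a one-sided 95% upper limit of about 3 counts, while the intervals given here are two-sided. This level was 0.161 CPM in Irf4-/- injected, 0.187 in Irf4-/- control, 0.162 in WT injected and 0.143 in WT control. Btla, which like CD160 encodes a receptor for HVEM (chromosome 16, 45224315 to 45257670), had 55 counts in Irf4-/- injected, 61 in Irf4-/- control, 64 in WT injected and 86 in WT control, which is between 2.95 and 4.09 CPM. The intervals of Btla overlapped in all 4 libraries, and its log2 change with genotype was -0.15 (SE 0.296, adjusted p 0.939, edgeR).

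Havcr2, which encodes TIM-3 (chromosome 11, 46454935 to 46481255), had 15 counts in Irf4-/- injected, 24 in Irf4-/- control, 21 in WT injected and 18 in WT control. It passed the filter through 2 libraries, and its log2 change with genotype was 0.19 (SE 0.491, adjusted p 0.957, edgeR). Its ratio was 0.713 (0.342 to 1.45) in the injected genotype pair and 1.75 (0.911 to 3.42) in the control genotype pair. At this depth no difference in Havcr2 was detectable.

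Pdcd1, which encodes PD-1 (chromosome 1, 94038305 to 94052553), had 18 counts in Irf4-/- injected, 14 in Irf4-/- control, 15 in WT injected and 14 in WT control. These are levels between 0.666 and 0.967 CPM, with overlapping intervals from 0.364 to 1.53 CPM. Pdcd1 was above the limit of detection in every library and below the filter, so it was not tested. Its ratio was 1.20 (0.570 to 2.55) in the injected genotype pair and 1.31 (0.580 to 2.97) in the control genotype pair, and both intervals hold 1 as well as a 2-fold higher level.

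Ctla4, which encodes a competitor of the costimulatory receptor CD28 (chromosome 1, 60887000 to 60915832), had 3 counts in Irf4-/- injected, 4 in Irf4-/- control, 9 in WT injected and 1 in WT control. Its level was 0.161 CPM (0.0332 to 0.471) in Irf4-/- injected and 0.250 (0.0681 to 0.639) in Irf4-/- control. In WT injected it was 0.484 CPM (0.222 to 0.920) and in WT control 0.0476 (0.00121 to 0.265). The ratio of WT injected over WT control was 10.2, with a counting interval of 1.41 to 446, from 9 and 1 counts. The other ratios of Ctla4 had intervals that include 1, and the gene was not tested. Summed over Btla, Havcr2, Pdcd1 and Ctla4, the FPKM was 1.79 in Irf4-/- injected, 2.32 in Irf4-/- control, 2.14 in WT injected and 1.94 in WT control.

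Several of these receptors are also made by other cells, and in bulk RNA fewer cells of a type and less RNA per cell cannot be told apart. Of 12 T cell markers, 10 were tested, 1 passed in the higher direction and 0 in the lower with genotype, and none was at 0 in any library. Their summed level was 148 CPM in Irf4-/- injected and 125 in Irf4-/- control, against 130 in WT injected and 135 in WT control. Most of it was Cd28, and the other 11 summed to 51.9 CPM in Irf4-/- injected and 52.8 in Irf4-/- control, against 51.3 in WT injected and 58.0 in WT control. Of the 10 tested, 6 had a log2 change with genotype below 0, with a median of -0.17. Over all genes tested, 1.22% rose and 0.258% fell with genotype. The marker that passed was Foxp3, the transcription factor of regulatory T cells, which had 38 counts in Irf4-/- injected and 44 in Irf4-/- control, against 8 in WT injected and 6 in WT control (log2 change 2.73, SE 0.494, adjusted p 0.0214, edgeR). Foxp3 reached 1 CPM in the 2 Irf4-/- libraries alone and so entered the test through the group where it was high, which makes its call no support for a difference. Cd4, which lies 16140 bases from Lag3, had 29 counts in Irf4-/- injected and 14 in Irf4-/- control, against 21 in WT injected and 14 in WT control. The part of T cells in the Lag3 result was not tested.

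Of 15 monocyte and macrophage markers, 12 were tested, and Itgam, which NK cells also express, was the 1 that rose with genotype. Without Itgam the summed level of the other 14 was 75.5 CPM in Irf4-/- injected and 61.4 in Irf4-/- control, against 91.8 in WT injected and 39.6 in WT control. None of the 15 was at 0. With injection, 2 of the 12 tested rose, Vcam1 and C1qc, and 1 fell, Lyz2. Over all genes tested, 1.22% rose and 0.258% fell with genotype, and 0.333% rose and 0.392% fell with injection. In the sum without Itgam, Irf4-/- was thus below WT in injected mice and above it in control mice. Gm49339 was higher in Irf4-/- among injected and among control mice. The part of macrophages in the Gm49339 result was not tested. The 12 B cell markers, which include Ms4a1 and Cd79a and of which none was at 0, summed to 57.7 CPM in Irf4-/- injected and 82.5 in Irf4-/- control, against 34.4 in WT injected and 78.9 in WT control. All 12 were tested and Fcer2a was the 1 that fell with injection, where 0.392% of all genes tested fell. Btla, which B cells express, had a log2 ratio with injection of -0.36 (-0.92 to 0.18) in Irf4-/- mice and -0.24 (-0.74 to 0.24) in WT mice, and the part of B cells in it was not tested.

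Of 10 dendritic cell markers 5 were tested and none passed, with a summed level of 1288 CPM in Irf4-/- injected, 1153 in Irf4-/- control, 719 in WT injected and 941 in WT control, and Cd209a at 0 in some libraries. Nearly all of it was Itgax, which NK cells also express, and the other 9 summed to 39.9 CPM in Irf4-/- injected and 50.4 in Irf4-/- control, against 39.6 in WT injected and 46.3 in WT control. Neutrophil markers summed to between 0.999 and 3.07 CPM over 8 genes, with Retnlg and Ly6g at 0 in all 4 libraries. Of 6 plasma cell markers 3 were tested, and Irf4 was the 1 that rose with genotype, where 1.22% of all genes tested did. Tnfrsf17 was at 0 in all 4 libraries. The summed level was 74.3 to 103 CPM, most of it Xbp1 with 67.9 to 91.7 CPM. Irf4, the targeted gene, had 3.07 to 12.7 CPM, and Jchain, Sdc1 and Mzb1 each had at most 3.56 CPM. None of the 12 NK markers passed for genotype or injection.

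Ligands of the receptors were listed because NK cells can carry some of them. Of 19 genes 14 were tested and none rose or fell with genotype or injection, with a median log2 change of 0.22 with genotype. Cd274, which encodes the PD-1 ligand PD-L1, had 51.1 CPM in Irf4-/- injected and 43.5 in Irf4-/- control, against 43.4 in WT injected and 37.1 in WT control. Its receptor gene Pdcd1 was below 1 CPM in all 4 libraries. Tnfrsf14, which encodes HVEM, had between 35.9 and 41.5 CPM, and Fgl1, a ligand of LAG3, had 1 count in each Irf4-/- library and 0 in each WT library.

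The list of signalling partners and of proteases that process such receptors held 17 genes. All were tested and 1 rose with genotype, where 1.22% of all genes tested did. This was Furin, a proprotein convertase, with 304 CPM in Irf4-/- injected and 206 in Irf4-/- control, against 145 in WT injected and 124 in WT control (log2 change 0.91, SE 0.110, adjusted p 0.00223, edgeR). Ptpn6 had 147 CPM in Irf4-/- injected, 151 in Irf4-/- control, 109 in WT injected and 199 in WT control, with a log2 change with genotype of 0.02. Adam10 and Adam17, which shed LAG3 from the cell surface, had log2 changes with genotype of 0.06 and 0.17 and adjusted p-values of 0.931 and 0.657 by edgeR.

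Among 24 genes listed as other inhibitory receptors, 23 were matched and 19 tested. Of the 19, 2 rose and 0 fell with genotype and 1 rose with injection. Over all genes tested, 1.22% rose and 0.258% fell with genotype, and 0.333% rose with injection. Klrg1, a receptor of mature NK cells for cadherins, rose by 1.39 with genotype (adjusted p 0.00023) and Cd200r1, the receptor for CD200, rose by 1.35 (adjusted p 0.0151, both by edgeR). Tigit, a receptor for nectin-family ligands, rose by 1.20 with injection (SE 0.148, adjusted p 0.0057, edgeR). Among 26 regulators of checkpoint genes 25 were tested, of which 2 passed with genotype. They were Foxp3, with the limit given above, and Nr4a1, an activation-induced nuclear receptor, which fell by 0.77 (adjusted p 0.0104, edgeR), while Tox, a factor of exhausted T cells, had a log2 change with genotype of 0.05.

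The genes whose log2 CPM pattern was nearest to that of Lag3 were Podnl1, Enpp5, C1qtnf6, Furin and Casp4, at Euclidean distances of 0.104, 0.171, 0.174, 0.188 and 0.202 over 4 libraries among 9324 protein-coding genes that averaged 5 CPM or more. Lag3 itself lay 1.12 from a flat pattern. Podnl1 had 58.9 CPM in Irf4-/- injected and 41.0 in Irf4-/- control, against 25.5 in WT injected and 20.2 in WT control. All 6 genes were highest in Irf4-/- injected and lowest in WT control. Among the 3 nearest to Cd160 were Runx1 and Pgam1, at 0.023 and 0.036, and nearest to Lair1 were Jun, Pecam1 and Itm2c, at 0.043 to 0.10. With 4 libraries such nearness is a description only.

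**Figure D5:**
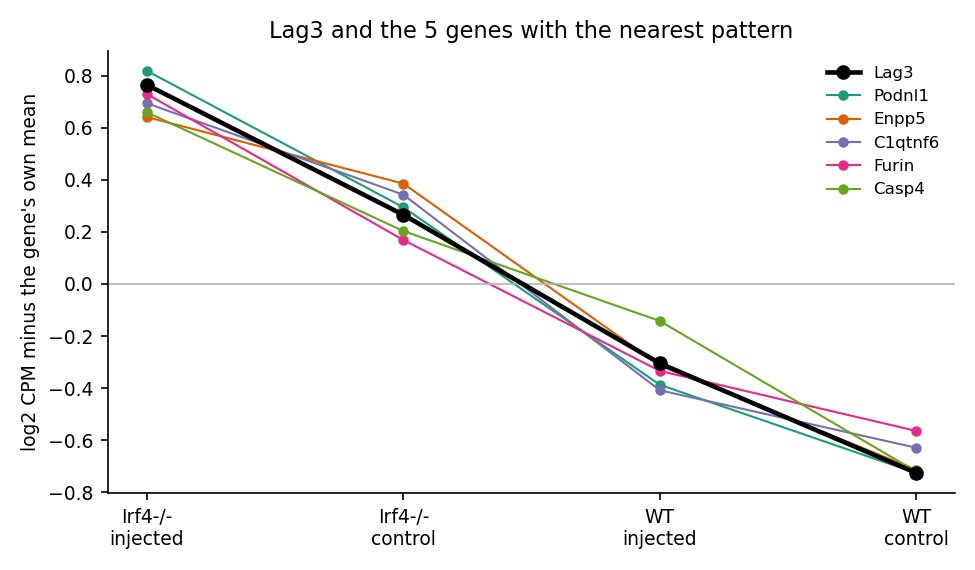
Log2 CPM minus the gene's own mean over the 4 libraries for Lag3 (black) and the 5 protein-coding genes nearest to it; lines join the values of a gene and mark no order in time. Lag3 and the 5 others run from highest in Irf4-/- injected to lowest in WT control.

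Ptms, the neighbour on the same strand whose 3′ end lies 1976 bases upstream of the start of Lag3, had a different pattern. Its level was 262 CPM in Irf4-/- injected and 255 in Irf4-/- control, against 155 in WT injected and 230 in WT control. The log2 ratio of Ptms was 0.75 (0.69 to 0.82) in the injected genotype pair and 0.15 (0.09 to 0.21) in the control genotype pair, where that of Lag3 was 0.99. No other annotated gene overlapped Lag3. Cd160 shares 68 exonic bases with Pdzk1 on the opposite strand, which had between 5 and 15 counts.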

How the data were processed

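The authors deposited raw read counts per gene, as whole numbers, and a second table of FPKM (counts relative to gene length and library total). TopHat, edgeR and the build mm10 are named, without versions, per the submitters' processing notes; counter, annotation and strand setting were not given in the sources used here. Of 35275 identifiers 34490 matched a symbol of GENCODE vM21 (GRCm38) and 785 did not. Groups came from the sample titles. Counts were scaled by TMM in edgeR 4.0.16 (R 4.3.3). Tests were edgeR's quasi-likelihood test with additive genotype and injection terms over 4 libraries, on genes reaching 1 CPM in 2 or more libraries, adjusted by Benjamini-Hochberg at 0.05 (two-sided). The fit had a common dispersion of 0.00996 and 9.62 prior degrees of freedom. Standard errors are the log2 change over the square root of F. How many animals were behind each library is not stated, and no group has a second library. The edgeR p-values rest on 1 residual degree of freedom of the additive fit, moderated by the prior degrees of freedom. That residual can include technical differences, and it does not measure variation from animal to animal. Log2 ratios of pairs used a prior count of 2, with Clopper-Pearson intervals, and counts have Poisson intervals. Differences of responses used no prior count and have approximate intervals from a normal approximation to counting error. Named were the 8 receptors, Irf4, neighbouring genes, list genes that passed (up to 5 a list) and the nearest patterns; other genes were chosen after their values were seen; 1 gene that this rule names is not reported here. The members and lists were chosen with earlier results of these data known. Alternatives were DESeq2 1.42.0, limma-voom (limma 3.58.1), a model without the other term, median-of-ratios or total scaling, other filters, thresholds, folds and prior counts, and log2 of FPKM plus 0.1.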

Additional observations from a re-analysis of the deposited data

Results flagged for a closer look

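Cd160 differed between genotypes in the direction of its injection ratio. Its log2 ratio was 0.281 in Irf4-/- mice and -0.231 in WT mice, and both counting intervals excluded 0. The difference (Irf4-/- minus WT) was 0.51 on the log2 scale with an approximate counting interval of 0.40 to 0.62. It was not tested against a spread between samples because each group has 1 library. Lair1 also had a difference whose approximate interval excluded 0, at -0.28, without ratio intervals on opposite sides of 0. Ctla4, at -3.98, had too few counts for the approximation. The share of all genes with such a difference was not counted. Of 9523 genes that averaged 5 CPM or more in both pairs, 4.03% had intervals above 0 in Irf4-/- mice and below 0 in WT mice, and 2.69% the opposite. The WT ratio rests on WT injected, the library that stood farthest from the others.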

How the results depend on the processing

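The number of the 7 matched genes called with genotype was 1 and became 0 with the injection term left out; it stayed at 1 under the other alternatives run. Lag3 kept its direction in all fits, with log2 changes of 1.03 to 1.05 and adjusted p-values of 4.33e-07 to 0.268 in edgeR, DESeq2 and limma-voom. The number called with injection was 0 under every alternative run. By the 2-fold rule the control genotype pair had 0 of the genes, and 1 with library totals alone or at 1.5-fold, and the WT injection pair had 0, and 1 (Ctla4, from 9 and 1 counts) with no minimum. Of 208 comparisons of single values with an alternative, 206 kept their side of the threshold or lay within their counting interval, 2 lost the call (Lag3 and Gm49339 without the injection term) and none reversed. No paired analysis was possible because each group has 1 library and the labels carry no replicate numbers. Leaving out a library leaves the additive fit with no residual degrees of freedom; without WT injected the genotype value is that of the control pair. Depth limits Pdcd1, Ctla4 and Havcr2.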
